A study of Mus musculus with 8 samples.

Results

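The genes described here are 10 regulators of the TGF-β pathway: the receptor-regulated Smads *Smad2* and *Smad3*, the common Smad *Smad4*, the inhibitory Smad *Smad7*, the co-repressors *Ski*, *Skil* and *Tgif1*, the ubiquitin ligases *Smurf1* and *Smurf2*, and the membrane inhibitor *Pmepa1*. They were chosen by symbol for their role, with earlier results of these data known but by a rule that uses no measured value, and all 10 were found among the 24303 genes of the RNA-Seq table. Their levels were followed in P14 CD8 T cells from the spleen, whose transgenic receptor recognizes GP33, a peptide of lymphocytic choriomeningitis virus. Naive cells of every group were first activated on plates coated with antibodies to CD3 and CD28 up to day 2 and kept in medium with IL-2 and IL-15, and viable CD8 cells were sorted for 2 libraries a group. Acute-2d cells received no GP33 after activation, Acute-7d cells received GP33 up to day 7 and were then rested, and both were collected on day 19. Effector cells were collected on day 7 and had no rest after that day. The paper labels day 7 cells Effector 7d-stim in its flow cytometry, but its methods give no separate GP33 schedule for the Effector libraries. T_Dysf cells received GP33 repeatedly up to day 19 and, alone among the groups, TGF-β1 from day 7. No library had continued GP33 without TGF-β1, so the part of each in a T_Dysf value cannot be told apart. The cells are 1 receptor specificity kept in culture, and the series calls the libraries biological replicates without saying whether each came from its own mouse, so p-values measure the spread between these libraries, which may in part be technical.

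TGF-β binds a complex of receptor kinases that phosphorylates Smad2 and Smad3. These join Smad4, enter the nucleus and, with other factors, switch genes on or off. The pathway restrains itself: Smad7 blocks the receptor, the Smurfs mark receptor and Smads for degradation, Pmepa1 holds Smads away from the receptor, and Ski, SnoN (the product of *Skil*) and Tgif1 repress Smad target genes. In CD8 T cells TGF-β is best known for inducing CD103, the integrin chain encoded by *Itgae*, which holds T cells in epithelia.

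Against Acute-7d cells, T_Dysf cells had less *Smad3* and more *Ski*, *Skil* and *Pmepa1*. *Smad3* was 21.7-fold lower and *Pmepa1* 21.8-fold higher, while *Skil* was 3.16-fold and *Ski* 2.12-fold higher. The difference was assessed by limma with Benjamini-Hochberg adjustment over all genes on log2(normalized count + 1), and a gene is said here to have risen or fallen when it changed at least 2-fold with an adjusted p under 0.05. By these criteria 3 of the 10 genes rose, 1 fell and 6 did not pass. Of all genes 2.54% rose and 3.03% fell, together 5.57%. Among the 12028 genes with a mean of at least 50 normalized counts, as all 10 have, 8.01% passed. The median log2 fold change of the 10 genes, which differ in sign, was -0.06 against Acute-7d, -0.04 against Acute-2d and 0.61 against Effector, and that of all genes was 0 in each. With 2 libraries a group, an exact permutation test of any pair of groups cannot give a two-sided p below 0.333, so the calls rest on the spread that limma shares across genes and groups.

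**Figure D1:**
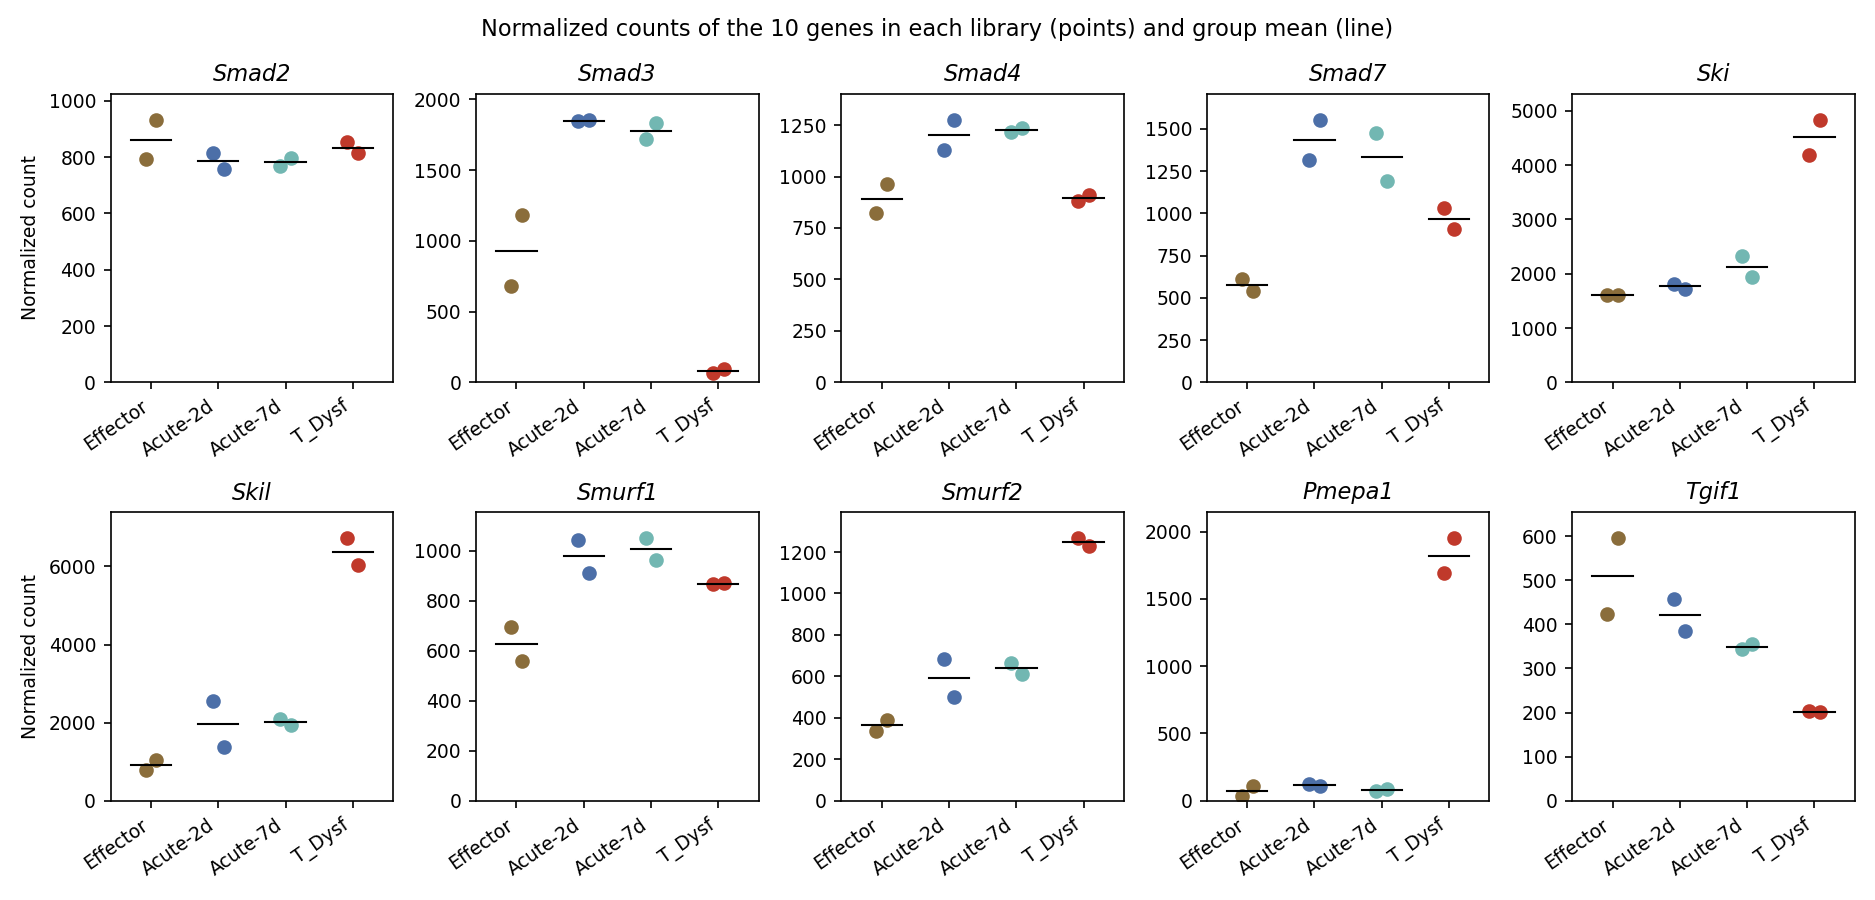
Normalized counts (y axis, linear from 0) of the 10 genes in each library (points) with the group mean (line), by condition (x axis, 2 libraries each). The T_Dysf libraries lie above the other 6 for *Ski*, *Skil*, *Smurf2* and *Pmepa1* and below them for *Smad3* and *Tgif1*.

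The libraries held 19382147 to 24856224 reads on genes, counted from the value of 1 read in each library, so 3 reads are worth 2.59 to 3.35 normalized counts and the lowest value of the 10 genes, 34.7, was above that floor, which covers counting error only. The 5 markers of CD8 T cells (*Cd8a*, *Cd8b1* and the CD3 chains) summed to 50838 to 66581 normalized counts in the other 6 libraries and to 114255 and 118703 in T_Dysf. Summed NK markers were 1545 to 4545 in the other libraries and 1073 and 1748 in T_Dysf, CD4 and regulatory T cell markers 1057 to 1636 and 1083 and 1409, myeloid markers 300 to 713 and 418 to 478, erythroid markers 43.1 to 101 and 43.2 to 64.1, and fibroblast markers 16.7 to 57.6 and 16.4 to 24.0. The NK sum was nearly all *Eomes* and *Klrb1c*, with *Ncr1* at most 105, and 2.59 and 1.78 in T_Dysf. The CD4 sum was nearly all *Zbtb7b*, with *Cd4* at most 13.0, and the highest myeloid marker was *Lyz2*, at 187 to 438, with *Adgre1* at most 6.90. Of the B cell markers *Cd79b* held 136 and 115 in T_Dysf, 30.1 and 38.4 in Acute-7d and 72.7 to 138 in the other groups, and *Ms4a1* at most 13.0. The part of the CD8 and B cell marker levels in the results was not tested. Both Effector libraries and Acute-7d replicate 1 carry the prefix RESUB in their library names, which the labels do not explain, and these 3 libraries differed from the other 5 in *Xist* (53.5 to 115 against 21871 to 30427 normalized counts), which female cells express, and in the sum of 4 Y-linked genes (4642 to 5581 against 0 to 13.8). These marks thus coincide with the Effector group and split the Acute-7d replicates, which therefore did not come from the same mouse, and the labels do not give the sex of the mice. In T_Dysf replicate 1, 138 entries with at least 50 reads in all other libraries lay under 3 reads, and none of the 10 genes or of the other pathway genes was among them.

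*Smad3* (chr9:63646767-63757994, minus strand, with all gene spans on GRCm38) encodes the receptor-regulated Smad that binds DNA directly. It stood at 679 and 1181 normalized counts in the Effector libraries, 1844 and 1856 in Acute-2d, 1723 and 1835 in Acute-7d, and 68.2 and 96.1 in T_Dysf. Both T_Dysf libraries lay far below the other 6, the Acute libraries lay close together, and the Effector libraries lay between and apart from each other. The log2 fold change of T_Dysf was -4.44 ± 0.30 (SE, adjusted p = 0.00461) against Acute-7d, -4.50 ± 0.30 (adjusted p = 0.00348) against Acute-2d and -3.45 ± 0.30 (adjusted p = 0.00624) against Effector, the last a 10.9-fold difference. *Smad3* fell in all 3 comparisons. In bulk RNA, fewer cells that express a gene and less RNA per cell cannot be told apart. The fall against Acute-7d and Acute-2d passed without each of the 8 libraries in turn, and against Effector it did not pass with a term for the RESUB prefix (log2 fold change -3.54, adjusted p = 0.0983) or when only those 2 groups were fitted (adjusted p = 0.0676).

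*Smad2* (chr18:76241580-76310963, plus strand), the other Smad that TGF-β receptors phosphorylate, held 792 and 933 normalized counts in Effector, 815 and 759 in Acute-2d, 769 and 798 in Acute-7d, and 853 and 814 in T_Dysf. The groups overlapped, except that both T_Dysf libraries lay above both Acute-7d libraries. Its log2 fold change against Acute-7d was 0.09 with a 95% confidence interval of -0.15 to 0.33 (adjusted p = 0.612), and against Effector the interval was -0.29 to 0.20. Differences beyond these bounds are outside the intervals, and with 2 libraries a group those within them may still exist.

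By level per kb of exon, the balance of these Smads in T_Dysf cells was the reverse of that in the other groups. Per kb of exon, *Smad3* made up 57.6% and 66.7% of the summed level of *Smad2* and *Smad3* in Effector, 78.2% and 79.5% in Acute-2d, and 78.0% and 78.5% in Acute-7d. In T_Dysf its share was 11.2% and 15.8%. Per kb, *Smad3* was at 321 ± 14.3 (SD, n = 2) normalized counts and *Smad2* at 89.2 ± 2.34 in Acute-7d, against 14.8 ± 3.56 and 94.9 ± 3.15 in T_Dysf. By level per kb, *Smad3* was the more abundant of these Smads in every library of the other 3 groups and the less abundant in both T_Dysf libraries. In Effector replicate 1 this order depends on the exon lengths used, since before division by length *Smad3* held 679 normalized counts and *Smad2* 792.

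**Figure D2:**
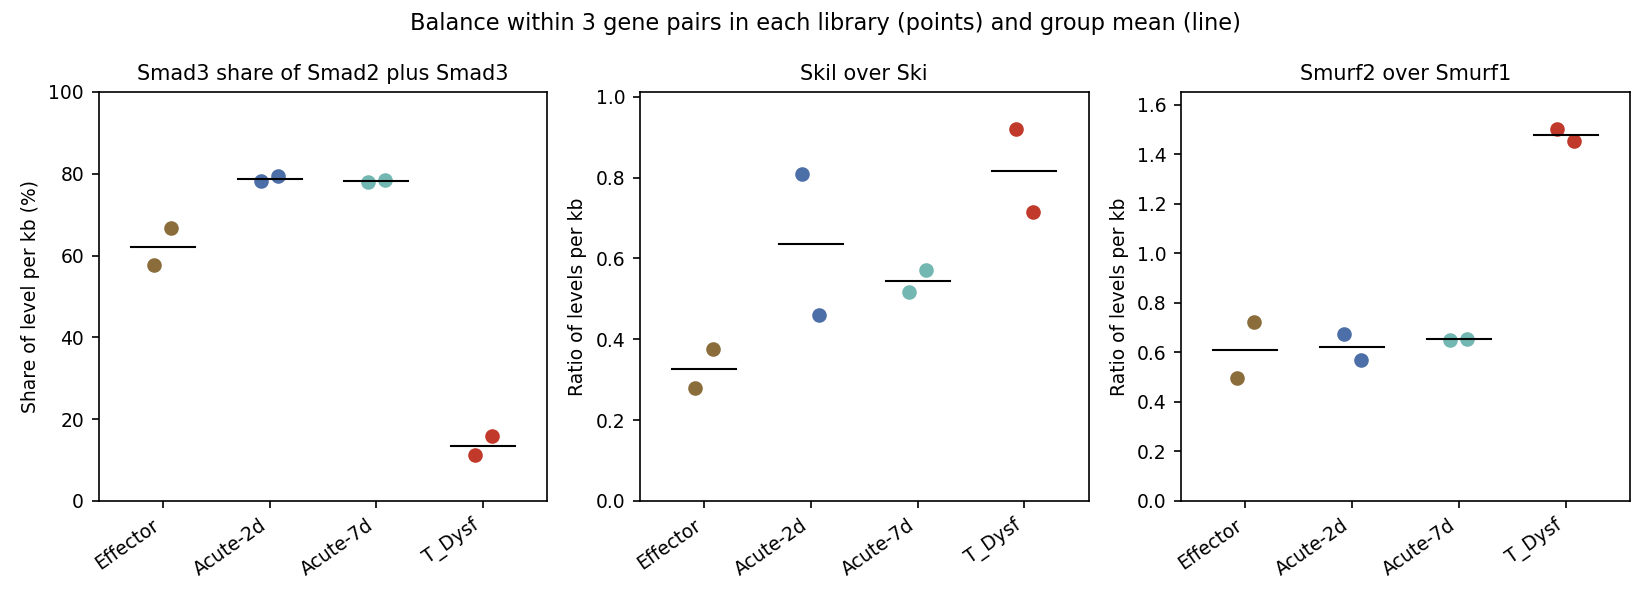
Balance within 3 gene pairs in each library (points) with the group mean (line), by condition (x axis): the share of *Smad3* in the level of *Smad2* plus *Smad3* per kb of exon (left, %), and the ratios per kb of *Skil* to *Ski* (centre) and *Smurf2* to *Smurf1* (right). The *Smad3* share was 57.6% or more in 6 libraries and 15.8% or less in T_Dysf, and the *Smurf2* ratio was at least 1.45 in T_Dysf and 0.722 or less elsewhere.

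*Smad4* (chr18:73639009-73703780, minus strand), the partner shared by all receptor-regulated Smads, stood at 821 and 963 normalized counts in Effector, 1131 and 1276 in Acute-2d, 1218 and 1234 in Acute-7d, and 883 and 908 in T_Dysf. The T_Dysf libraries lay within the range of the Effector libraries and below the 4 Acute libraries. The log2 fold change of T_Dysf was -0.45 ± 0.10 (SE, adjusted p = 0.0593) against Acute-7d, -0.42 ± 0.10 (adjusted p = 0.0605) against Acute-2d and 0.01 (95% confidence interval -0.24 to 0.27) against Effector. None of these passed.

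*Smad7* (chr18:75367529-75395935, plus strand), the inhibitory Smad, held 610 and 543 normalized counts in Effector, 1318 and 1555 in Acute-2d, 1477 and 1193 in Acute-7d, and 1030 and 909 in T_Dysf. T_Dysf lay between Effector, the lowest group, and the Acute groups, and overlapped neither. Against Acute-7d its log2 fold change was -0.46 ± 0.15 (SE, adjusted p = 0.144) and against Acute-2d -0.56 ± 0.15 (adjusted p = 0.0847). Against Effector it was 0.75 ± 0.15, a 1.68-fold difference below the required fold (adjusted p = 0.0363). *Smad7* thus did not rise against the rested cells in the group given TGF-β1.

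*Pmepa1* (chr2:173224458-173276533, minus strand) encodes a membrane protein that keeps Smads from the receptor. It held 34.7 and 110 normalized counts in Effector, 127 and 111 in Acute-2d, 74.8 and 90.9 in Acute-7d, and 1693 and 1950 in T_Dysf. Both T_Dysf libraries lay more than 10 times above the highest of the other 6, and the other groups overlapped or lay close together. The log2 fold change of T_Dysf was 4.45 ± 0.54 (SE, adjusted p = 0.0159) against Acute-7d, 3.92 ± 0.54 (adjusted p = 0.0167) against Acute-2d and 4.85 ± 0.54 (adjusted p = 0.0101) against Effector, so *Pmepa1* rose in all 3. The call against Acute-2d was lost without any 1 of the Acute-2d or T_Dysf libraries (log2 fold change 3.80 to 4.02 over 20 alternatives). That against Effector (4.03 to 5.67) was lost without T_Dysf replicate 1 and when only those 2 groups were fitted. A term for the RESUB prefix removed the calls against Effector and Acute-7d. Without Acute-7d replicate 1 or 2, or T_Dysf replicate 1 or 2, the difference from Acute-7d stayed between 4.31 and 4.58 on the log2 scale, but its adjusted p was 0.0562 to 0.0917. Without either Effector library, whose values of 34.7 and 110 lie far apart and enter the shared spread, the adjusted p against Acute-7d was at most 0.00383.

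*Skil* (chr3:31095058-31122577, plus strand) encodes SnoN, and *Ski* (chr4:155154075-155222592, minus strand) its relative, both repressors that bind the Smad complex on DNA. *Skil* stood at 784 and 1050 normalized counts in Effector, 2555 and 1384 in Acute-2d, 2089 and 1940 in Acute-7d, and 6720 and 6024 in T_Dysf. *Ski* stood at 1615 and 1604 in Effector, 1809 and 1722 in Acute-2d, 2317 and 1944 in Acute-7d, and 4191 and 4835 in T_Dysf. For both genes the T_Dysf libraries lay above all other libraries, and Effector was the lowest group.

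*Ski* rose by 1.08 ± 0.11 (log2 fold change ± SE, adjusted p = 0.0108) against Acute-7d, 1.35 ± 0.11 (adjusted p = 0.00545) against Acute-2d and 1.48 ± 0.11 (adjusted p = 0.00447) against Effector. *Skil* rose by 1.66 ± 0.32 (adjusted p = 0.0453), 1.76 ± 0.32 (adjusted p = 0.0326) and 2.81 ± 0.32 (adjusted p = 0.0105) in the same order, the last a 7.01-fold difference. Per kb of exon, *Ski* was at 812 ± 82.0 (SD, n = 2) normalized counts in T_Dysf and *Skil* at 658 ± 50.8. The ratio of *Skil* to *Ski* per kb was 0.920 and 0.715 in T_Dysf against 0.279 and 0.376 in Effector, but the Acute-2d libraries, at 0.810 and 0.461, overlapped with T_Dysf. Against Acute-7d the call of *Skil* was lost without any 1 of the Effector, Acute-7d or T_Dysf libraries (adjusted p 0.0631 to 0.189, log2 fold change 1.58 to 1.74), and with the replicate number as a block (adjusted p = 0.0810). That of *Ski* was lost on the fold criterion without Acute-7d replicate 2 (log2 fold change 0.96) or T_Dysf replicate 2 (0.98).

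*Tgif1* (chr17:70844205-70853546, minus strand), a homeodomain co-repressor of Smads, was the only one of the 3 co-repressors among the 10 genes that was lowest in T_Dysf. Its values were 423 and 595 normalized counts in Effector, 458 and 384 in Acute-2d, 344 and 354 in Acute-7d, and 202 in both T_Dysf libraries. The T_Dysf libraries lay below the other 6, and the Effector and Acute-2d libraries overlapped. *Tgif1* fell by 1.05 on the log2 scale against Acute-2d (SE 0.18, adjusted p = 0.0292) and by 1.31 against Effector (adjusted p = 0.0154). Against Acute-7d the log2 fold change was -0.78 ± 0.18, and the adjusted p, at 0.0688, did not pass. The fall against Acute-2d was lost without any 1 of the Acute or T_Dysf libraries. That against Effector was lost without either T_Dysf library, with a term for the RESUB prefix and when only those 2 groups were fitted. Over the 20 alternatives its log2 fold change against Effector stayed between -1.55 and -1.06.

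*Smurf2* (chr11:106820066-106920715, minus strand) and *Smurf1* (chr5:144876495-144965847, minus strand) encode related ubiquitin ligases that Smad7 brings to the receptor. *Smurf2* held 335 and 391 normalized counts in Effector, 682 and 502 in Acute-2d, 664 and 614 in Acute-7d, and 1266 and 1229 in T_Dysf. *Smurf1* held 694 and 558 in Effector, 1044 and 911 in Acute-2d, 1050 and 964 in Acute-7d, and 868 and 869 in T_Dysf. *Smurf2* was highest in T_Dysf with no overlap, while *Smurf1* lay between Effector and the Acute groups.

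*Smurf2* rose by 1.09 ± 0.17 (log2 fold change ± SE, adjusted p = 0.0214) against Acute-2d and 1.78 ± 0.17 (adjusted p = 0.00717) against Effector. Against Acute-7d its adjusted p was 0.0349, but its fold change of 1.95 was below 2. *Smurf1* did not pass in any of these comparisons, with log2 fold changes of -0.21 (95% confidence interval -0.55 to 0.12) against Acute-7d, -0.17 (-0.50 to 0.17) against Acute-2d and 0.48 (0.15 to 0.81, adjusted p = 0.0717) against Effector. Per kb of exon the ratio of *Smurf2* to *Smurf1* was 1.50 and 1.45 in T_Dysf and 0.498 to 0.722 in the other 6 libraries. *Smurf2* was thus the more abundant Smurf transcript in T_Dysf and the less abundant one elsewhere. The rise of *Smurf2* against Acute-2d was lost without Acute-2d replicate 2 or any 1 of the Acute-7d or T_Dysf libraries.

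The DNA just before the start of 3 of these genes is shown because *Smad3* fell and *Ski* and, against Acute-2d and Effector, *Smurf2* rose in T_Dysf, and because Smad proteins are known to bind the letters CAGAC, part of the CAGA box, and GGCGC. The windows hold the 250 bases before the RefSeq start on GRCm38.p6, 5′ to 3′ on the strand of the gene, and capitals mark CAGAC (reverse complement GTCTG) or the other motif, GGCGC (reverse complement GCGCC). The *Smad3* window is chr9:63757995-63758244, the *Ski* window chr4:155222536-155222785 and the *Smurf2* window chr11:106920716-106920965, all on the minus strand. In the GENCODE annotation the *Ski* gene starts earlier, so 57 bases of its window lie inside the gene span given above.
Smad3: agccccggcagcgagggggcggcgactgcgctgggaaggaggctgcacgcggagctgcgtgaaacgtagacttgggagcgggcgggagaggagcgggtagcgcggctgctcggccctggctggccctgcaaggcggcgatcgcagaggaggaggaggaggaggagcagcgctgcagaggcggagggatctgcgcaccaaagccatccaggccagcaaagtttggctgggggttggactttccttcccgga
Ski: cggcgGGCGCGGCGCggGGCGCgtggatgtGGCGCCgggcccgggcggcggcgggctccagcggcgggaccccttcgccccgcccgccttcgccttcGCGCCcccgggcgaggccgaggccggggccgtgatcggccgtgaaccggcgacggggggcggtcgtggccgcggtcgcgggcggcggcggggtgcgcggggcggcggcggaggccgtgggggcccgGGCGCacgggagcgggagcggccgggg
Smurf2: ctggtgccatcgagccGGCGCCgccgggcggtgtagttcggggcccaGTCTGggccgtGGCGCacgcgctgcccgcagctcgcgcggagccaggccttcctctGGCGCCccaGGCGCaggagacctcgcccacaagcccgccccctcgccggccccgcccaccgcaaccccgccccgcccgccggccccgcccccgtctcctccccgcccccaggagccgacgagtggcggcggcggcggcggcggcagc

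Both motifs were searched on both strands with overlapping matches counted, so the palindrome GGCGCC counts as 2 matches. The *Smad3* window held neither motif. The *Ski* window held 7 matches of GGCGC and none of CAGAC, and the *Smurf2* window held 6 of GGCGC and 1 of CAGAC. Of all 32851 promoter windows of that length, 32.0% held GGCGC and 42.2% CAGAC. The GC content was 69.2% in the *Smad3* window, 87.6% in *Ski* and 82.0% in *Smurf2*, against a median of 52.4%. The *Smurf1* window, whose gene did not pass in T_Dysf, held 4 of GGCGC and 2 of CAGAC. For *Tgif1*, which fell against Acute-2d and Effector, the table holds 5 windows, of which 3 held CAGAC and 1 held GGCGC. All of them but chr17:70853533-70853782 lie wholly inside the gene span given above. That window, with 14 bases inside the span, held CAGAC but not GGCGC. These are matches of letters only, and 5 of the 10 genes had a window in the RefSeq table: *Smad3*, *Ski*, *Smurf1*, *Smurf2* and *Tgif1*.

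Across the comparisons of T_Dysf cells, *Smad3*, *Ski*, *Skil* and *Pmepa1* passed in each. Against Acute-2d, 4 of the 10 genes rose and 2 fell, beside 3.14% of all genes that rose and 4.21% that fell (7.35% together, and 10.5% of those with a mean of at least 50). Against Effector, also 4 rose and 2 fell, beside 4.47% and 4.75% of all genes (9.22% together, and 13.7% of those with a mean of at least 50). The 3 comparisons share the T_Dysf libraries. Both T_Dysf libraries lay above the other 6 for 4 genes (*Ski*, *Skil*, *Smurf2*, *Pmepa1*), as for 12.2% of the 23040 genes not at 0 throughout, and below them for 2 (*Smad3*, *Tgif1*), as for 12.6%. *Smad2*, *Smad4*, *Smad7* and *Smurf1* did not pass in any comparison of T_Dysf. *Smad3* and *Ski* were the only calls left against Acute-2d without Acute-2d replicate 2 or either T_Dysf library, and against Effector without T_Dysf replicate 1.

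**Figure D3:**
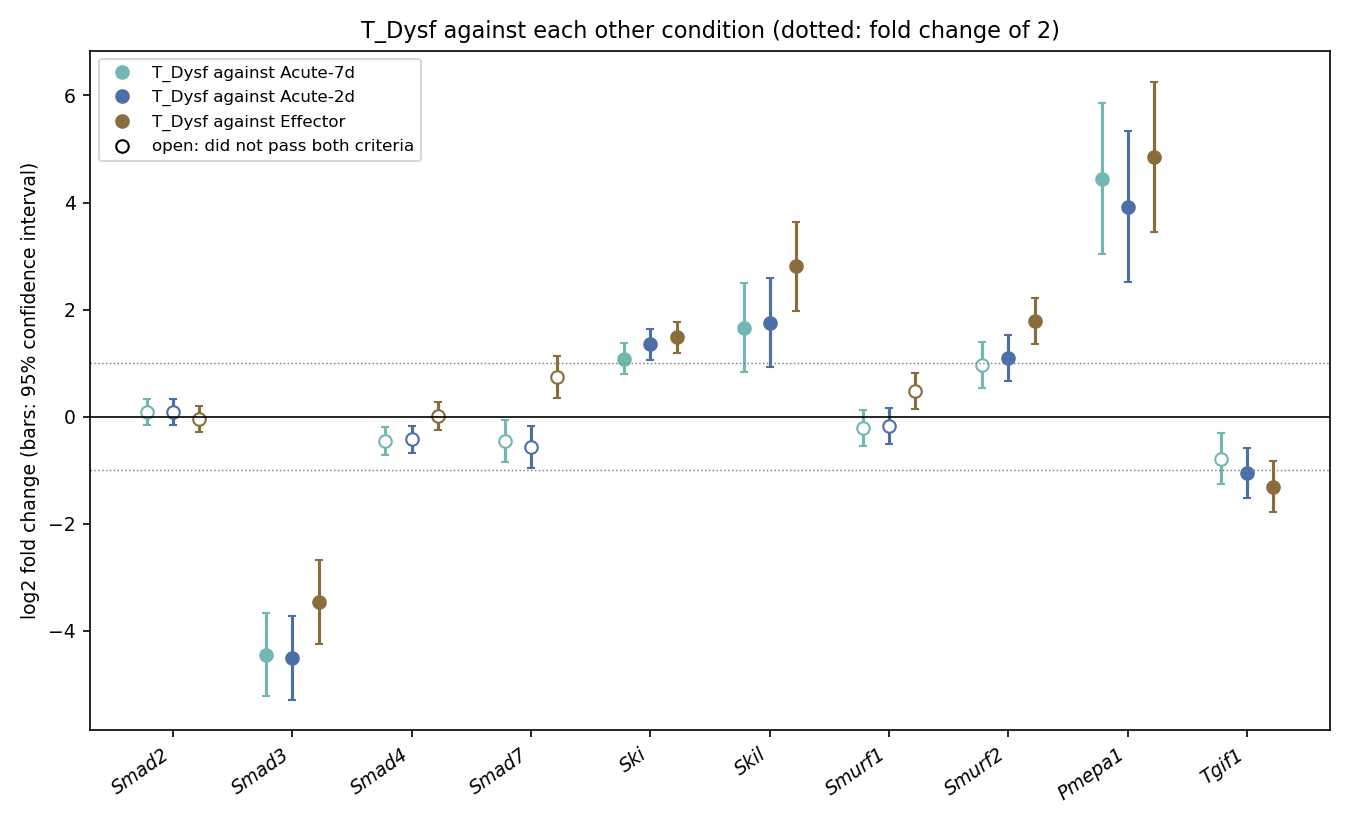
Log2 fold change of T_Dysf (y axis, with 95% confidence interval) against Acute-7d, Acute-2d and Effector for each of the 10 genes (x axis). Filled points changed at least 2-fold with an adjusted p under 0.05, and the dotted lines mark a fold change of 2. *Smad3* lies between -4.50 and -3.45 and *Pmepa1* between 3.92 and 4.85, while all *Smad2* intervals include 0.

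With RESUB libraries left out of the Acute-7d group, that is without Acute-7d replicate 1, the log2 fold changes against Acute-7d were -4.49 for *Smad3* (adjusted p = 0.0303), 1.21 for *Ski* (adjusted p = 0.0269), 4.31 for *Pmepa1* (adjusted p = 0.0894) and 1.71 for *Skil* (adjusted p = 0.171). Acute-2d and T_Dysf hold no RESUB library, so that comparison lies within 1 kind of library. Against Effector, where every control is a RESUB library, a term for the prefix left *Ski* alone past both criteria (log2 fold change 1.74, adjusted p = 0.0296). Only Acute-7d holds both kinds of library, so in every comparison that term rests on the difference between Acute-7d replicate 1 and replicate 2.

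The rested groups, Acute-7d and Acute-2d, differ in whether GP33 was given up to day 7, and both were free of it by day 19. None of the 10 genes passed by limma, none had an unadjusted p under 0.05 and none passed by limma-voom. Of all genes 0.169% passed and 7.31% had an unadjusted p under 0.05. *Smad3* differed by -0.06 on the log2 scale (95% confidence interval -0.84 to 0.73) and *Ski* by 0.27 (-0.02 to 0.55). The interval of *Pmepa1*, -1.93 to 0.88, and that of *Skil*, -0.73 to 0.93, allow larger differences than that of *Smad2*, -0.25 to 0.23.

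Effector cells, collected on day 7, had the lowest *Smad7* of the 4 groups. *Smad7* fell by 1.20 on the log2 scale (SE 0.15, adjusted p = 0.0172) against Acute-7d and by 1.31 (SE 0.15, adjusted p = 0.0132) against Acute-2d. It was the only one of the 10 genes that passed in either comparison, beside 8.06% and 8.78% of all genes. *Smurf1* (log2 fold change -0.69, adjusted p = 0.0324), *Smurf2* (-0.82, adjusted p = 0.0396) and *Smad4* (-0.46, adjusted p = 0.0432) differed from Acute-7d at under 2-fold, so 4 of the 10 genes had an adjusted p under 0.05, beside 14.9% of all genes. *Smad3* differed by -0.99 ± 0.30 (SE, adjusted p = 0.0990) and *Skil* by -1.15 ± 0.32 (adjusted p = 0.0803). The day of collection, the RESUB prefix and the Effector group cannot be told apart against Acute-2d. Nor can stimulation up to day 7, against the rest of both Acute groups, be told from the day of collection. Against Acute-7d the call of *Smad7* was lost without Effector replicate 2 or Acute-7d replicate 1, and it was also lost when only those 2 groups were fitted (adjusted p = 0.106), and with a term for the prefix it passed (log2 fold change -1.36, adjusted p = 0.0416). Against Acute-2d the call was lost with the term (adjusted p = 0.0791) and in the fit of those 2 groups (adjusted p = 0.0892).

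Of the other pathway genes, 70 were listed by role and 68 were in the table, 56 of them with a mean of at least 50 normalized counts. Against Acute-7d, 6 rose and none fell in T_Dysf, and their median log2 fold change was 0.00. As above, 2.54% of all genes rose and 3.03% fell, and 8.01% of all those with a mean of at least 50 passed. The receptor-regulated and inhibitory Smads outside the 10 genes, *Smad1*, *Smad5* and *Smad6*, did not pass, and none of the 11 nuclear cofactors did.

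The gene that encodes CD103, *Itgae*, held 80.4 and 50.2 normalized counts in Effector, 101 and 100 in Acute-2d, 71.4 and 73.7 in Acute-7d, and 40456 and 37825 in T_Dysf. It rose by 9.05 ± 0.22 (log2 fold change ± SE, adjusted p = 0.000385) against Acute-7d, with no overlap between T_Dysf and any other group. *Cdkn2b*, a cell-cycle inhibitor that TGF-β induces in many cells, was the only other of the 14 responsive genes that rose. It stood at 63.6 in each Acute-7d library and at 188 and 250 in T_Dysf (log2 fold change 1.75 ± 0.30, adjusted p = 0.0346). Other genes of the 14 were lower in T_Dysf. *Id3* (log2 fold change -2.05, adjusted p = 0.160) and *Klf10* (-1.02, adjusted p = 0.0791) did not pass against Acute-7d. Against Acute-2d both fell (-4.18, adjusted p = 0.0284, and -1.39, adjusted p = 0.0322). Against Effector *Id3* fell (-3.72, adjusted p = 0.0330), while *Klf10* did not pass (0.73, adjusted p = 0.126).

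Among 13 genes of ligands and latency, *Tgfb3*, which encodes a TGF-β ligand, and *Itgav*, an integrin chain that helps to activate latent TGF-β, rose. *Tgfb3* went from 17.9 and 14.1 normalized counts in Acute-7d to 2756 and 3228 in T_Dysf (log2 fold change 7.46 ± 0.23, adjusted p = 0.00058). *Itgav* went from 1448 and 1756 to 5768 and 5881 (1.87 ± 0.12, adjusted p = 0.00392). Among 10 receptors only *Acvr1*, a receptor of the BMP and activin branch, rose, from 11.2 and 18.2 to 172 and 166 (3.48 ± 0.37, adjusted p = 0.0117). In each of these genes both T_Dysf libraries lay above the other 6.

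Among 17 genes for ligases, deubiquitinases, phosphatases and adaptors, only *Ldlrad4* rose, which encodes a membrane relative of Pmepa1 that also restrains Smad activation. It held 46.9 and 27.3 normalized counts in Acute-7d and 1484 and 1256 in T_Dysf (log2 fold change 5.21 ± 0.34, adjusted p = 0.00403). Its exons overlap those of *Fam210a* on the opposite strand by 1838 bases, and whether counting used strand is not stated in the sources used here. *Fam210a* held 988 and 882 in Acute-7d and 521 and 514 in T_Dysf, so it was lower in T_Dysf, where *Ldlrad4* was higher. The exons of *Itgav* overlap those of *Gm13684* by 634 bases on the opposite strand, an entry with 34.8 and 16.1 normalized counts in Acute-7d and 105 and 81.4 in T_Dysf, so both were higher there.

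**Figure D4:**
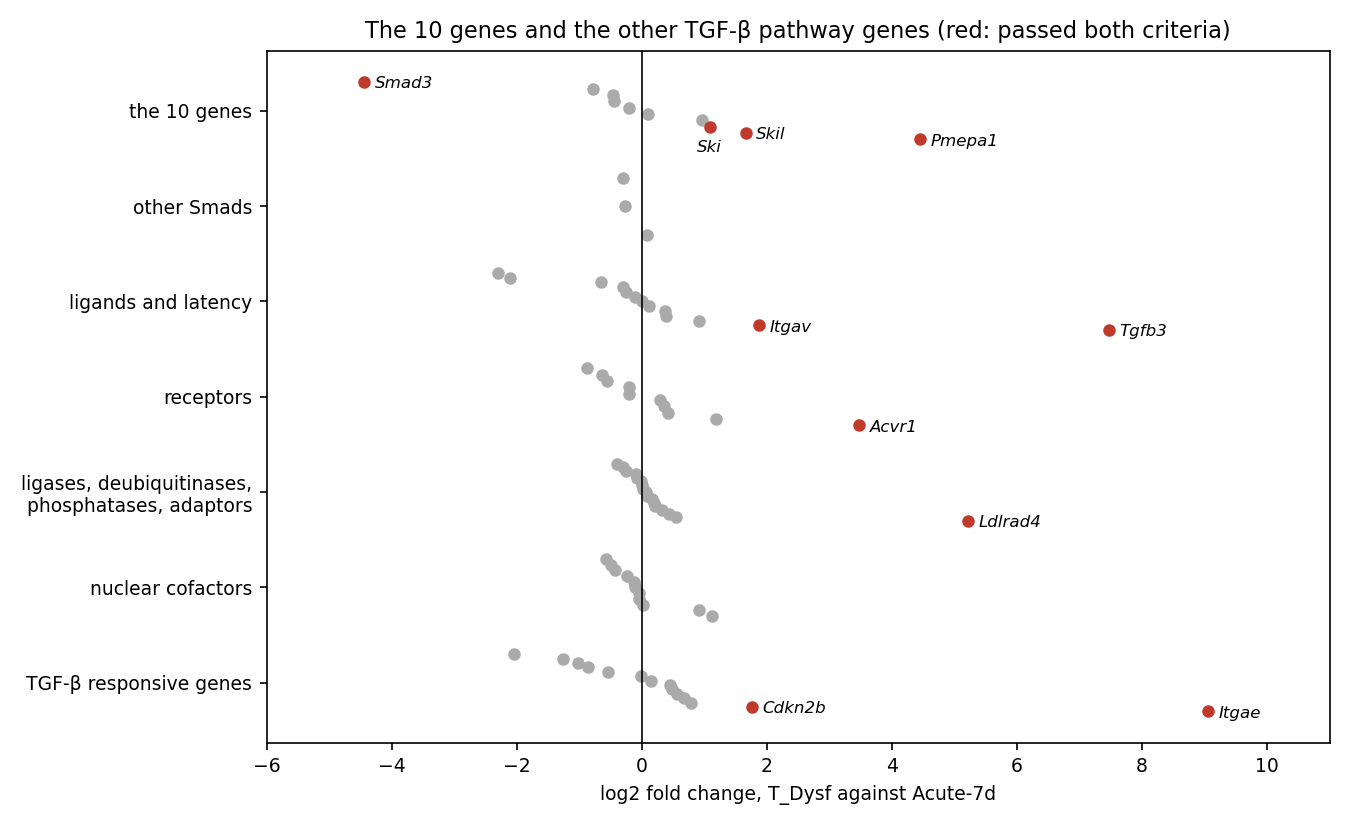
Log2 fold change of T_Dysf against Acute-7d (x axis) for the 10 genes and for the other TGF-β pathway genes by role (y axis, each point 1 gene, spread vertically within its row only for legibility). Red points changed at least 2-fold with an adjusted p under 0.05: 4 of the 10 genes and 6 of the other 68.

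Against Acute-2d, 7 of the other pathway genes rose and 4 fell, beside 3.14% and 4.21% of all genes, and these 11 calls became 6 and 7 without T_Dysf replicate 1 and 2. Against Effector 15 rose and 2 fell, beside 4.47% and 4.75% of all genes. Of all genes with a mean of at least 50, 10.5% passed against Acute-2d and 13.7% against Effector. The pathway genes that fell were *Lrrc32*, *Eng*, *Id3* and *Klf10* against Acute-2d, and *Nrros* and *Id3* against Effector. Those that rose against Effector included 5 of the 10 receptors (*Tgfbr1*, *Tgfbr2*, *Tgfbr3*, *Acvr1* and *Acvr2a*). In Effector itself 5 of the 10 fell against Acute-7d and 6 against Acute-2d, beside 8.06% and 8.78% of all genes that passed in either direction. *Tgfbr2*, *Tgfbr3* and *Acvr2a* were among them both times. *Acvr2a* held 40.5 and 48.9 normalized counts in Effector and 660 and 708 in Acute-2d. It held 851 and 744 in Acute-7d and 684 and 700 in T_Dysf. Against Effector 8 calls were made with a term for the RESUB prefix and 7 without T_Dysf replicate 1. The type II receptor of TGF-β itself, *Tgfbr2*, held 3237 and 2950 normalized counts in Effector and 6501 and 6427 in Acute-2d. It held 7484 and 6950 in Acute-7d and 9122 and 9301 in T_Dysf. The type I receptor, *Tgfbr1*, held 374 and 488, 530 and 355, 723 and 692, and 1011 and 891 in the same order.

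The profiles most like those of *Pmepa1*, *Skil* and *Smad3* over the 8 libraries were sought by Pearson correlation of log2 values among 12027 other genes with a mean of at least 50. The libraries share their groups, and the separation of T_Dysf from the rest sets much of each value, so these are descriptions. For *Skil* the closest of all genes was *Smurf2* (r = 0.997), followed by *Diaph2*, *Sema6d*, *Caprin2* and *Agap1* (r = 0.984 to 0.990). For *Smad3* the closest was *Bach2* (r = 0.995), a repressor known to hold T cells short of effector differentiation, which held 62.1 and 82.7 normalized counts in T_Dysf and 726 to 2350 elsewhere. It was followed by *Klf3*, *Cd84*, *Qtrt2* and *Kbtbd11* (r = 0.992 to 0.994). For *Pmepa1* the closest was *Mgat5* (r = 0.994), an enzyme that branches N-glycans, at 1734 and 1963 in T_Dysf and 579 to 780 elsewhere, followed by *Rhot1*, *Nmrk1*, *Lamp2* and *Dpy19l3* (r = 0.986 to 0.990). Within the 10 genes, *Pmepa1* correlated with *Ski* at 0.93, *Skil* at 0.92 and *Smurf2* at 0.90, and with *Smad3* at -0.87, *Tgif1* at -0.83 and *Smad7* at 0.04.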

How the data were processed

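The 8 RNA-Seq libraries were grouped by their labels. Per the methods, the authors used STAR for alignment to mm10, Partek Flow for quantification to RefSeq transcripts, and DESeq2 for median-ratio normalization. The deposited values are a signal: estimated gene read counts over the size factor of the library, called normalized counts here. Whole reads, within 0.02 read, made up 53.3% to 75.8% of the values under 1000 reads in a library, so no count model was fitted. No column was left out.

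The trend version of limma (3.58.1; R 4.3.3) was fitted to log2(normalized count + 1) for all 24303 genes and 8 libraries, with 4 group means, 4 residual degrees of freedom and no covariate. Tests were two-sided, in 6 comparisons. The fold change of 2 and threshold of 0.05 were applied to p adjusted by Benjamini-Hochberg over all genes. Fold changes are on the log2(value + 1) scale, which understates changes of low genes. In simulated data for T_Dysf against Acute-7d with 24303 genes, 48 of 100 genes with a log2 fold of 1.5 and 62 of 100 with 2 were recovered, and 1 unchanged gene was called. Far fewer genes were changed there than the 1353 that passed in the data, and the adjustment depends on that number. Recovery in the data may therefore be unlike that in the simulation, and a gene that did not pass may still differ.

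The genes, pathway lists, markers and tests were chosen with earlier results of these data known. The genes named are the 10 regulators, Itgae, in each pathway list up to 3 genes in each direction that passed against Acute-7d with a mean of at least 50 normalized counts, and the 5 profiles most like Pmepa1, Skil and Smad3. Zbtb7b, Lyz2, Cd79b, Eomes and Klrb1c among the markers and Fam210a, Gm13684, Tgfbr1, Tgfbr2 and the other genes listed by name in counts were added after their values were seen. The sum of 1 list of cell type markers is not reported here. Exon lengths and gene spans came from GENCODE vM21 (GRCm38), promoters from RefSeq (GRCm38.p6). To check pairing, the differences between replicates were correlated across genes for 6 pairs of groups, which gave -0.199 to 0.197, 2 of them over 0.1, so equal replicate numbers were not taken as pairs. Alternatives were a pseudocount of 0.1 or 10, filters on low values, protein-coding genes only, 3 other normalizations, limma-voom, a fit of the 2 groups compared, a replicate block, a term for the RESUB prefix, other thresholds and each library left out. Figures were drawn with matplotlib 3.10.9 in Python 3.11.15, from tables made with pandas 2.3.3.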

Additional observations from a re-analysis of the deposited data

How the results depend on the processing

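The fall of Smad3 against Acute-7d and Acute-2d, and the rise of Ski against Acute-2d and Effector, passed under all 20 alternatives of scale, filter, model or library. The calls of the other genes did not pass under every one, though each kept its direction. Leaving out a library also leaves 3 residual degrees of freedom in place of 4, and the lone library is then assumed to vary like the other groups. The causes of the other changes were not tested. For T_Dysf against Acute-7d, the 4 calls among the 10 genes became 2 with equal 75th percentiles or a RESUB term and 1 to 4 without 1 library. They were 1 without Acute-7d replicate 2 or T_Dysf replicate 2, and 2 without replicate 1 of either group. The 6 calls among other pathway genes became 10 with a mean or maximum of at least 50, limma-voom or no fold limit, 12 with unadjusted p, and 4 to 8 without 1 library. For T_Dysf against Acute-2d, the 6 calls became 3 with a RESUB term and 2 to 6 without 1 library (2 without Acute-2d replicate 2 or either T_Dysf library, 3 without either Acute-7d library), and the 11 pathway calls became 18 with unadjusted p and 6 to 12 without 1 library (6 and 7 without T_Dysf replicates 1 and 2). For T_Dysf against Effector, the 6 calls became 3 in a fit of the 2 groups compared, 1 with a RESUB term and 2 to 6 without 1 library (2 without T_Dysf replicate 1), and the 17 pathway calls became 7 in the fit of 2 groups, 8 with a RESUB term, 26 with no fold limit and 7 to 16 without 1 library. For Effector against Acute-7d, the 1 call became 2 with a mean or maximum of at least 50, quantile normalization, limma-voom or unadjusted p, 4 with no fold limit, 0 in the fit of 2 groups and 0 to 2 without 1 library. For Effector against Acute-2d, the 1 call became 3 with a mean or maximum of at least 50, limma-voom, no fold limit or unadjusted p, 2 with equal 75th percentiles or quantile normalization, 0 in the fit of 2 groups or with a RESUB term, and 1 to 3 without 1 library.

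Small differences changed sign. Smad2 stood at -0.013 against Acute-7d and -0.034 against Acute-2d with equal 75th percentiles, and at -0.16 to 0.073 against Effector without 1 library (0.073 without Effector replicate 2). Smad4 against Effector stood at -0.00062 with equal totals, -0.0075 with a RESUB term, -0.0017 with limma-voom, and -0.10 to 0.13 without 1 library (-0.10 without Effector replicate 1, -0.0093 without T_Dysf replicate 2). Equal 75th percentiles moved the median of genes with a mean of at least 50 by -0.10 to -0.15 on the log2 scale in 4 of the 6 comparisons. With the replicate number as a block, which moves calls but was not taken as a pairing, the adjusted p was 0.0810 for Skil against Acute-7d, 0.0630 for Skil against Acute-2d and 0.0621 for Tgif1 against Acute-2d, and the other calls passed. The lowest value of the 10 genes, 34.7 normalized counts, lay above the floor of 3 reads.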
